A study of Rattus norvegicus with 16 samples.

Results

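The genes followed here encode the main collagen IV, laminin and nidogen components of the glomerular basement membrane, and they were taken by name from the gene table of rat kidney RNA sequencing: Col4a1, Col4a2, Col4a3, Col4a4, Col4a5, Col4a6, Lama5, Lamb2 and Nid1. These 9 genes were each found once among the 35849 genes of the table. The rats were male inbred SD rats aged 6 to 8 weeks at the start, in 4 groups of 4. The normal group received citrate buffer and a normal diet. The DN (diabetic nephropathy) group received streptozotocin (STZ), which destroys the insulin-producing beta cells, at 45 mg/kg, and a high-glucose, high-fat diet, and only rats whose blood glucose was over 16.7 mmol/L one week later were kept. Rats of the remaining groups had the same STZ injection, glucose selection and diet, and were given sinomenine (SIN), an alkaloid from a Chinese medicinal plant, every day by gavage for 8 weeks, at 20 mg/kg in one group and at 40 mg/kg in the other. STZ and the diet went together in every diabetic rat, so their effects cannot be told apart.

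A basement membrane is a thin sheet of matrix under epithelia and around capillaries. Collagen IV gives it strength: each molecule is a triple helix of alpha chains, and the chains come in set combinations, an alpha1-alpha1-alpha2 network found in nearly every basement membrane and in the mesangial matrix, and an alpha3-alpha4-alpha5 network that replaces it in the mature glomerular filter, where podocytes make it, and that is also laid down around distal tubules. Loss of a chain of the latter network causes Alport syndrome. Laminin-521, which carries the alpha5 chain from Lama5 and the beta2 chain from Lamb2, forms the cell-facing polymer, and nidogen-1, from Nid1, links laminin to collagen IV. Thickening of the glomerular basement membrane and expansion of the mesangial matrix are the classical lesions of diabetic kidney disease.

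The collagen IV genes lie in head-to-head pairs that are read away from each other from a shared start region. The promoter windows of the first 2 pairs are described because the levels of the partners of each rose and fell together over the rats. Those of Col4a1, Col4a3 and Col4a4 are printed. The windows are those of RefSeq on the GRCr8 rat assembly and run from 250 bases before to 50 bases after a gene's start; 8 of the 9 genes have one, Lamb2 being the exception. Capitals mark the bases that also lie in the partner's window. The Col4a1 window is chr16:84885347-84885646 on the plus strand, the Col4a3 window is chr9:91323740-91324039 on the plus strand, and the Col4a4 window is chr9:91323528-91323827 on the minus strand.
Col4a1: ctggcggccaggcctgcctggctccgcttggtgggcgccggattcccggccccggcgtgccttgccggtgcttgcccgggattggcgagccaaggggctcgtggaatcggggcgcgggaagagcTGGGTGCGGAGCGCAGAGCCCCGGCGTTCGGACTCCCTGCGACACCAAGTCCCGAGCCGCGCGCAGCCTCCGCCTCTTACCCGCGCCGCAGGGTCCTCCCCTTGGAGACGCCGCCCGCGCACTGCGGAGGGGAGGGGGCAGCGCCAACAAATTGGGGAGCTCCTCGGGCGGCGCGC
Col4a3: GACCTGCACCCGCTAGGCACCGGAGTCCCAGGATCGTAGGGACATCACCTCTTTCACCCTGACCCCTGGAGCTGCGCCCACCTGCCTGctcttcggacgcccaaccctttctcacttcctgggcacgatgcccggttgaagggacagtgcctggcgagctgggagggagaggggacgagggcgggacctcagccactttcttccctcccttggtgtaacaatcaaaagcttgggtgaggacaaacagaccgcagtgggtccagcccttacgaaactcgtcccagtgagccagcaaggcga
Col4a4: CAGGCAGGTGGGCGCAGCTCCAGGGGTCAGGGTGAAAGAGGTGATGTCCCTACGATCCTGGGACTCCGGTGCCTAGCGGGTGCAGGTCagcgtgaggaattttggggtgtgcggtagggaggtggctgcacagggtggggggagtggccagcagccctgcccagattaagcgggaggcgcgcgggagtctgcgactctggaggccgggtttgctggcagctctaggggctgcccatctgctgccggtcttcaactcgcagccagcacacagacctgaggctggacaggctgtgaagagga
The Col4a2 window, chr16:84885471-84885770 on the minus strand, shared 176 bases with that of Col4a1, and only 76 bases separated the start sites. The Col4a3 and Col4a4 windows shared 88 bases, with 412 bases between the start sites. Col4a5 and Col4a6 on chromosome X were also head to head, but 1414 bases lay between their start sites and their windows shared none. GC content was 75.0% in the Col4a1 window and 62.0% in the Col4a3 window, against a median of 51.7% over all 33469 promoter windows. The GC box GGGCGG, searched on both strands, had 2 matches in the Col4a1 window, 1 in the Col4a3 window and 0 in the Col4a4 window, and 33.1% of all windows held it. CCAAT had 2 matches in the Col4a1 window and 1 in the Col4a2 window, and these letters were not in the Col4a3 or Col4a4 windows; 37.5% of all windows held it. Neither TATAAA, held by 14.2% of all windows, nor CACGTG, held by 6.42%, was found in any of the 8 windows. These letter matches are a description of the windows and not a sign of binding.

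The libraries held 19616312 to 25217030 estimated counts, and levels are given as counts per 1000000 (CPM) after TMM scaling. RNA came from kidney tissue of mixed cell types, and the part of the kidney taken is not stated. Fewer cells of a type, less RNA per cell and a different piece of kidney therefore cannot be told apart. The tissue carried the proximal tubule marker Slc34a1 at 2879 to 5855 CPM and the podocyte marker Nphs1, which encodes nephrin, at 22.6 to 65.8 CPM over all 16 rats. DN replicate 3 stood apart the most. Its 6 smooth muscle markers summed to 800.5 CPM against 191.2 to 280.7 in the other DN rats. Its 8 urothelial and keratinocyte markers summed to 281.1 against 137.0 to 177.5. Counts, shares and called changes that use it are also given without it, an alternative added after the markers were seen. Normal replicate 1 stood apart less. Its smooth muscle markers summed to 205.6 CPM against 91.2 to 121.7 in the other normal rats. Its urothelial and keratinocyte markers summed to 208.5 against 139.0 to 154.1. Leaving out normal replicate 1 is covered only by the alternatives that leave out single rats. The labels name no batch. A serial code in the sample descriptions runs consecutively within each group, so anything that followed that code cannot be told apart from the groups.

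Among the collagen IV chains, Col4a4 was the most abundant per unit length in normal kidney and Col4a6 the least. Per kilobase of transcript, Col4a4 stood at 100.3 ± 11.96 CPM (SD, n = 4) in the normal group, Col4a1 at 46.1 ± 5.79, Col4a2 at 41.1 ± 5.87, Col4a3 at 31.5 ± 1.54, Col4a5 at 11.5 ± 0.838 and Col4a6 at 0.425 ± 0.122. Col4a1, Col4a2 and their spreads lay close together, while the step from Col4a4 to Col4a1 was larger than the spread in either. Of the other components, Nid1 stood at 42.0 ± 7.71 CPM per kilobase in the normal group, Lamb2 at 23.8 ± 4.52 and Lama5 at 7.15 ± 0.918. All 9 genes passed the filter on low counts in each of the comparisons.

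**Figure D1:**
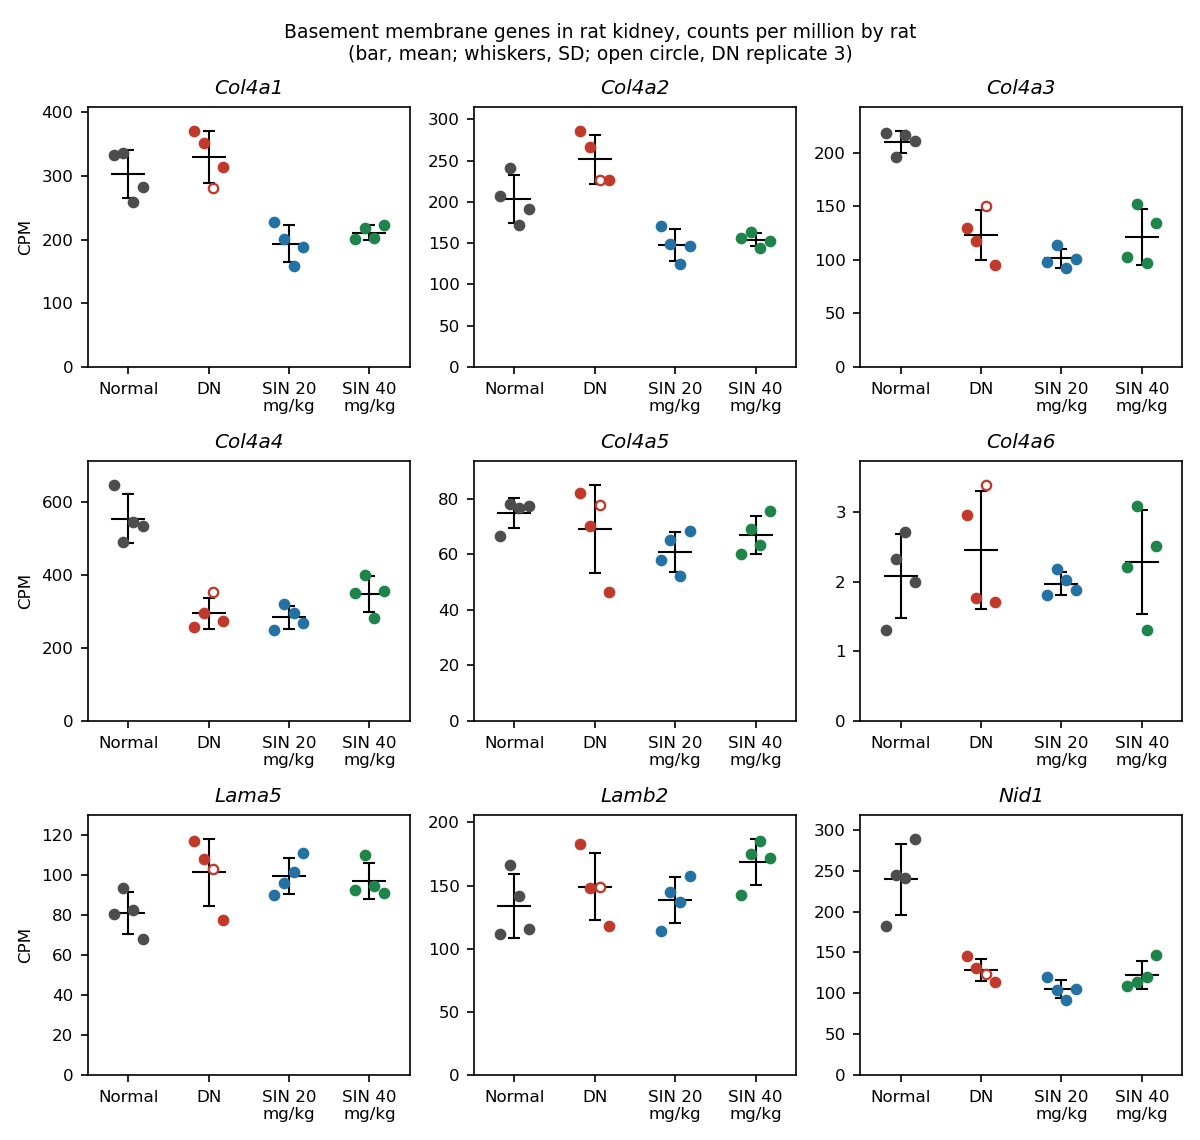
Levels of the 9 genes in CPM (vertical axis, from 0) in each rat of the 4 groups (horizontal axis); points are rats, bars the group mean and whiskers the SD, and the open circle is DN replicate 3. Col4a3, Col4a4 and Nid1 lay lower in every diabetic rat than in any normal rat, and Col4a1 and Col4a2 lay lower in every SIN-treated rat than in any DN rat.

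The comparison of the DN group with the normal group asks how the diabetic kidney differs. The collagen IV chains split: Col4a3 and Col4a4, the chains of the mature glomerular network, fell to 0.588 and 0.534 of their normal level, Nid1 fell to 0.539, and Col4a1 and Col4a2 did not fall. These 3 genes passed an adjusted p of 0.05 in edgeR's quasi-likelihood test with Benjamini-Hochberg adjustment over the 15775 genes tested, and none of the 9 was called higher, though Col4a2 and Lama5 were higher at an unadjusted p of 0.05. Over all genes, 10.8% were called lower and 8.74% higher. The same 3 genes were called without DN replicate 3, against 8.87% of all genes lower and 7.33% higher. Without it Col4a2 was still higher at an unadjusted p of 0.05 (unadjusted p = 0.0279, edgeR quasi-likelihood test) and Lama5 was not (unadjusted p = 0.0721). At that level 16.7% of all genes were higher. The share of all genes at an unadjusted p in this comparison is given only without that library.

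Col4a4 measured 646.2, 490.4, 543.3 and 533.6 CPM in the normal rats and 256.0, 294.9, 354.0 and 273.9 in the DN rats. The groups did not overlap, and the highest DN value belonged to DN replicate 3. The fitted log2 fold change was -0.90 with a standard error of 0.13 (adjusted p = 0.00497, edgeR quasi-likelihood test), and -1.01 (adjusted p = 0.00869) without DN replicate 3.

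Col4a3, whose product pairs with the Col4a4 chain in the triple helix and carries the Goodpasture antigen, measured 218.6, 195.7, 216.1 and 210.4 CPM in the normal rats and 130.0, 117.6, 150.2 and 94.8 in the DN rats. The lowest normal rat was above the highest DN rat, again DN replicate 3. Its log2 fold change was -0.77 with a standard error of 0.13 (adjusted p = 0.00876, edgeR), and -0.88 (adjusted p = 0.00962) without that library. The third chain of the same network, Col4a5, differed little: it ranged from 66.7 to 78.2 CPM in the normal rats and from 46.5 to 82.1 in the DN rats, and its 95% interval ran from -0.46 to 0.25 on the log2 scale around -0.11. DN replicate 4 was the low rat for Col4a5, and without it the change was 0.038.

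Nid1, the linker between the laminin and collagen networks, measured 182.3, 245.2, 240.7 and 289.3 CPM in the normal rats and 145.6, 131.2, 124.2 and 113.3 in the DN rats. No DN rat reached the lowest normal rat. The log2 fold change was -0.89 with a standard error of 0.14 (adjusted p = 0.00626, edgeR), and -0.88 (adjusted p = 0.0167) without DN replicate 3. Non-overlap of this kind, with every DN rat lower, was seen in 13.1% of all genes tested.

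The alpha1-alpha2 chains and the laminins did not pass the threshold in this comparison. Col4a2 was at 203 ± 29.0 CPM (SD, n = 4) in the normal group and 252 ± 30.1 in the DN rats, a fitted change of 0.31 on the log2 scale with a 95% interval of 0.03 to 0.59 (adjusted p = 0.103, edgeR), and the adjusted p was 0.047 without normal replicate 2. Col4a1 was at 303 ± 38.1 CPM in the normal group and 330.0 ± 40.3 in the DN group, with an interval of -0.15 to 0.40. Lama5 was at 80.9 ± 10.4 and 101.3 ± 16.8 CPM, with a log2 fold change of 0.33 and an interval of 0.02 to 0.64 (adjusted p = 0.117, edgeR), and the adjusted p was 0.0383 without DN replicate 4. Lamb2 was at 134.0 ± 25.4 and 149 ± 26.5 CPM, with an interval of -0.20 to 0.52. Col4a6, whose chain belongs to the basement membranes of smooth muscle and of Bowman's capsule, ranged from 1.30 to 2.72 CPM in the normal rats and from 1.71 to 3.40 in the DN rats, and its interval of -0.48 to 0.97 was the widest of the 9.

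**Figure D2:**
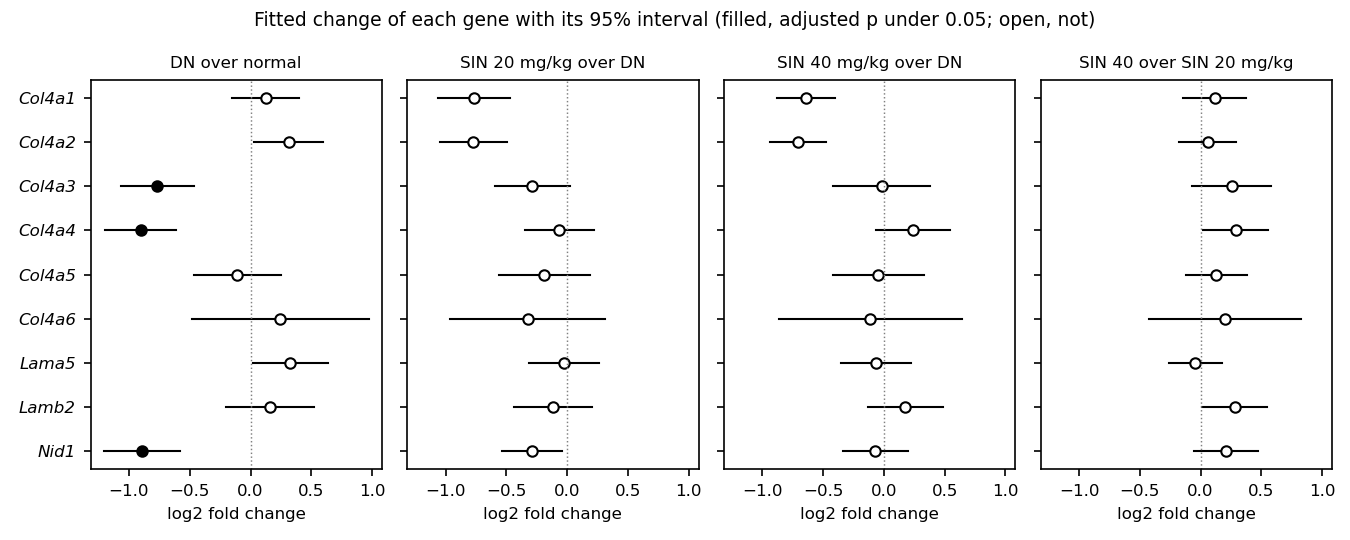
Fitted log2 fold change of each of the 9 genes (horizontal axis) with its 95% interval in 4 comparisons; filled circles passed an adjusted p of 0.05. The filled circles are Col4a3 at -0.77, Col4a4 at -0.90 and Nid1 at -0.89 in the DN over normal panel, and the intervals of Col4a1 and Col4a2 lie below 0 at both SIN doses.

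Markers of 2 cell types that build the alpha3-alpha4-alpha5 network were set beside these falls. Of the 10 podocyte markers, 0 were called lower in the DN group at an adjusted p of 0.05, against 10.8% of all genes. At an unadjusted p 1 was lower (Plce1, a phospholipase of the podocyte, log2 fold change -0.51). Called higher was 1 (Cdkn1c, a cell cycle inhibitor, 1.25, adjusted p = 0.031, edgeR), against 8.74% of all genes. The median change of the list was -0.28 against 0.00 over all genes tested. The summed podocyte markers ranged from 605.3 to 789.5 CPM in the normal rats and from 461.3 to 756.0 in the DN rats. Nephrin RNA (Nphs1) ranged from 45.6 to 65.8 CPM in the normal rats and from 22.6 to 62.0 in the DN rats. The summed thick limb and distal tubule markers did not overlap, at 3817 to 4723 CPM in the normal rats and 2204 to 3461 in the DN rats. Most of this sum was Umod, which encodes uromodulin, with means of 3286 and 1924 CPM. Of these 3 genes only Umod was called lower (log2 fold change -0.77, adjusted p = 0.0154, edgeR). It did not overlap, as was so for 13.1% of all genes tested with every DN rat lower. Slc12a1, at 455.6 to 955.5 CPM in the normal rats and 354.3 to 936.6 in the DN rats, overlapped. Slc12a3 did too, at 290.3 to 440.6 and 225.0 to 341.2. Leaving out DN replicate 3, Plce1 was at -0.62 (adjusted p = 0.0339, edgeR), Cdkn1c at 1.34 (adjusted p = 0.0403) and Umod at -0.69 (adjusted p = 0.0324). Without that library 8.87% of all genes were called lower and 7.33% higher, and 18.8% were lower at an unadjusted p. What part podocytes or distal tubules had in the falls of Col4a3 and Col4a4 was not tested.

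The comparison of each SIN group with the DN group asks what sinomenine changed. Here the lowest values relative to the DN group were those of the other pair of chains: Col4a1 and Col4a2 were at 0.586 and 0.585 of their DN level at 20 mg/kg and at 0.641 and 0.614 at 40 mg/kg, and for Col4a3, Col4a4, Col4a5, Col4a6, Lama5 and Lamb2 the 95% interval included 0 at both doses. None of the 9 genes reached an adjusted p of 0.05 in edgeR's quasi-likelihood test at either dose, nor did any gene of the whole table (0% of the 15724 genes tested at 20 mg/kg and 0% of the 15530 tested at 40 mg/kg). At an unadjusted p of 0.05, 3 of the 9 were lower at 20 mg/kg and 2 at 40 mg/kg, and 0 were higher, against 6.24% lower and 9.2% higher over all genes at 20 mg/kg and 7.21% lower and 9.9% higher at 40 mg/kg. Without DN replicate 3 the members at an unadjusted p of 0.05 were 3 lower and 0 higher at 20 mg/kg, and 2 lower and 1 higher at 40 mg/kg, the latter being Col4a4. The same 4 DN rats serve as reference for both doses.

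Col4a1 measured 371.5, 352.8, 281.3 and 314.3 CPM in the DN rats, 227.3, 201.8, 158.1 and 189.1 in the SIN (20 mg/kg) rats and 200.8, 218.3, 202.3 and 223.9 in the SIN (40 mg/kg) rats. Every treated rat was below every DN rat, and the lowest DN rat was DN replicate 3. At 20 mg/kg the log2 fold change was -0.77 with a standard error of 0.13 (unadjusted p = 0.00018, adjusted p = 0.203, edgeR quasi-likelihood test), and at 40 mg/kg it was -0.64 with a standard error of 0.11 (unadjusted p = 0.000135, adjusted p = 0.148).

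Col4a2 measured 286.4, 267.1, 226.1 and 226.8 CPM in the DN rats, 170.8, 149.4, 124.4 and 146.3 in the SIN (20 mg/kg) rats and 156.1, 164.2, 144.0 and 153.3 in the SIN (40 mg/kg) rats. Again the treated and untreated diabetic rats did not overlap. The log2 fold change was -0.77 with a standard error of 0.12 at 20 mg/kg (unadjusted p = 9.88e-05, adjusted p = 0.141, edgeR quasi-likelihood test) and -0.70 with a standard error of 0.10 at 40 mg/kg (unadjusted p = 4.94e-05, adjusted p = 0.148). Non-overlap with every treated rat lower was seen in 3.65% of all genes at 20 mg/kg and in 3.99% at 40 mg/kg.

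The call for these chains depended on the test. DESeq2 gave adjusted p-values of 5.79e-05 for Col4a1 and 8.89e-06 for Col4a2 at 20 mg/kg, and 3.7e-06 and 1.16e-07 at 40 mg/kg. edgeR's exact test gave 0.000929 and 0.000311 at 20 mg/kg, and 0.00144 and 0.000159 at 40 mg/kg. A quasi-likelihood fit over all 16 rats gave 0.0303 for both genes at 20 mg/kg, and 0.0412 for Col4a2 at 40 mg/kg. Shares of all genes called are given only for the quasi-likelihood test on pairs of groups. The calls by these other tests therefore cannot be weighed against all genes. Over all alternatives the adjusted p reached 0.528 for both genes at 20 mg/kg and 0.392 for both at 40 mg/kg. The fold changes moved little: the log2 fold change of Col4a2 stayed between -0.85 and -0.70 at 20 mg/kg and between -0.75 and -0.66 at 40 mg/kg. Without DN replicate 3, which has the high smooth muscle and urothelial markers, they were -0.84 for Col4a1 and -0.82 for Col4a2 at 20 mg/kg, and -0.71 and -0.75 at 40 mg/kg, with an adjusted p of 0.0824 for both at 40 mg/kg and 0.213 for both at 20 mg/kg (edgeR quasi-likelihood test).

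For the genes that were low in the DN group, no return toward the normal level was detected. Nid1 averaged 129 ± 13.5 CPM (SD, n = 4) in DN rats, 105 ± 11.4 at 20 mg/kg and 122 ± 16.9 at 40 mg/kg, with a log2 fold change of -0.29 at 20 mg/kg (unadjusted p = 0.0261, adjusted p = 0.291, edgeR) and overlapping groups; without DN replicate 3 it was -0.30 (unadjusted p = 0.0399, adjusted p = 0.313). Col4a3 was at 123 ± 23.2, 101.4 ± 9.15 and 122 ± 26.1 CPM in the same groups, with intervals of -0.60 to 0.02 at 20 mg/kg and -0.42 to 0.38 at 40 mg/kg. Col4a4 was at 295 ± 42.6, 283 ± 30.7 and 347 ± 48.3 CPM, with intervals of -0.35 to 0.22 and -0.07 to 0.54. Without DN replicate 3 the log2 fold change of Col4a4 at 40 mg/kg was 0.34 (unadjusted p = 0.0307, adjusted p = 0.244, edgeR).

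For the remaining chains no change from the DN level was detected at either dose. Col4a5 averaged 69.2 ± 15.9 CPM (SD, n = 4) in DN rats, 60.9 ± 7.18 at 20 mg/kg and 67.0 ± 6.84 at 40 mg/kg, and Lama5 at 101.3 ± 16.8, 99.6 ± 9.02 and 97.0 ± 8.85. Lamb2 was at 149 ± 26.5, 138 ± 18.2 and 169 ± 18.5 CPM, and Col4a6 at 2.46 ± 0.851, 1.98 ± 0.168 and 2.28 ± 0.746. The 95% intervals of these 4 genes included 0 at both doses, the narrowest being -0.32 to 0.26 for Lama5 at 20 mg/kg. The widest was -0.86 to 0.64 for Col4a6 at 40 mg/kg, so sizeable changes are not excluded.

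Between the doses no member passed an adjusted p of 0.05 in edgeR's quasi-likelihood test, in DESeq2 or in edgeR's exact test, and 0.00639% of the 15657 genes tested did. Col4a4 (log2 fold change 0.29, unadjusted p = 0.0394, adjusted p = 0.961, edgeR) and Lamb2 (0.28, unadjusted p = 0.0409, adjusted p = 0.961) were higher at 40 than at 20 mg/kg at an unadjusted p of 0.05 and 0 were lower, with overlapping groups, against 2.41% of all genes higher and 2.57% lower. For Col4a1 and Col4a2 the intervals between the doses ran from -0.14 to 0.37 and from -0.18 to 0.29.

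Each SIN group was also set against the normal group, a comparison added after the levels were seen. Called lower than normal at both doses were 4 genes, Col4a1, Col4a3, Col4a4 and Nid1. Over all genes, 3.58% of the 15877 tested at 20 mg/kg and 3.69% of the 15735 at 40 mg/kg were called lower. The log2 fold change of Col4a3 was -1.05 at 20 mg/kg (adjusted p = 0.000333, edgeR quasi-likelihood test) and -0.79 at 40 mg/kg (adjusted p = 0.00958), that of Col4a4 was -0.97 and -0.68, and that of Nid1 was -1.18 and -0.97. Col4a1 was at -0.65 at 20 mg/kg (adjusted p = 0.021) and -0.52 at 40 mg/kg (adjusted p = 0.0175). Its call was lost at 20 mg/kg without normal replicate 1 or 2 or without SIN (20 mg/kg) replicate 2, 3 or 4, with adjusted p-values of 0.0517 to 0.0612, and at 40 mg/kg without normal replicate 1 or without SIN (40 mg/kg) replicate 2 or 3, with 0.0522 to 0.0606. Col4a2 was at -0.46 (adjusted p = 0.0702) and -0.40 (adjusted p = 0.0594) and did not pass. It did pass in 4 of the 16 alternatives at 20 mg/kg and in 5 of 16 at 40 mg/kg, with adjusted p-values down to 0.0148 and 0.0146. The normal rats used here are the same 4 as in the comparison with the DN group.

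Taken per unit length, the make-up of the collagen IV messages shifted between groups, and the shares are given for each group. Col4a1 and Col4a2 together made up 37.7% ± 3.92 (SD, n = 4) of the collagen IV CPM per kilobase of normal rats, 54.9% ± 5.32 in DN rats, and 43.7% ± 4.58 and 41.0% ± 2.40 at 20 and 40 mg/kg of SIN. The DN rats, at 47.1% to 59.1%, were all above the normal rats, at 34.2% to 43.3%, and above the SIN (40 mg/kg) rats, at 38.4% to 44.1%, while the SIN (20 mg/kg) rats, at 39.3% to 49.99%, overlapped with them. The lowest DN share was that of DN replicate 3, and without it the DN mean was 57.5% ± 1.38 (SD, n = 3). Col4a4 alone took 43.4% ± 3.44 of the total in normal rats, 29.1% ± 4.23 in DN rats (27.4% ± 3.12 without DN replicate 3), 37.9% ± 4.31 at 20 mg/kg and 40.4% ± 2.01 at 40 mg/kg. A share can move through any chain: in the DN group its change came with lower Col4a3 and Col4a4, and in the SIN groups with lower Col4a1 and Col4a2, while the amount of Col4a3 and Col4a4 stayed below normal.

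**Figure D3:**
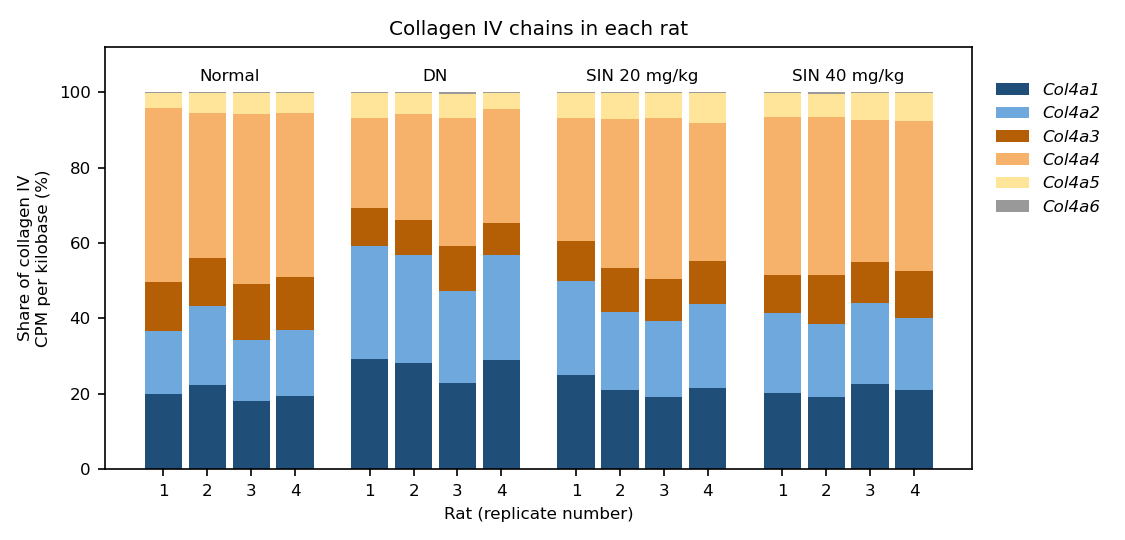
Share of each collagen IV chain (vertical axis, percent of the summed CPM per kilobase of the 6 chains) in each of the 16 rats, ordered by group and replicate number. The blue part, Col4a1 and Col4a2, averages 54.9% in the DN rats against 37.7% in the normal rats, and 43.7% and 41.0% in the SIN groups; Col4a6 is barely visible.

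Ratios between chains were taken within each rat, per kilobase. The ratio of Col4a1 to Col4a2, the partners of the first head-to-head pair, was 1.12 ± 0.0642 (SD, n = 4) in normal rats and 0.985 ± 0.0443 in DN rats, and the ranges of 1.05 to 1.21 and 0.933 to 1.04 did not overlap. At 20 and 40 mg/kg of SIN it was 0.984 ± 0.0270 and 1.03 ± 0.0582. The ratio of Col4a4 to Col4a3 was 3.18 ± 0.265 in normal rats, 2.94 ± 0.460 in DN rats, 3.38 ± 0.340 at 20 mg/kg and 3.502 ± 0.433 at 40 mg/kg, with overlap between every pair of groups. The ratio of Col4a5 to the scarce Col4a6 varied more, from 16.9 to 38.8 over the 16 rats. Between the pairs, the ratio of Col4a2 to Col4a4 ranged from 0.355 to 1.25, with means of 0.416 ± 0.0910 (SD, n = 4) in normal rats, 0.9754 ± 0.222 in DN rats, 0.592 ± 0.129 at 20 mg/kg and 0.502 ± 0.0476 at 40 mg/kg. Without DN replicate 3 the DN mean of this ratio was 1.06 ± 0.168 and that of Col4a1 to Col4a2 was 1.00 ± 0.0345 (SD, n = 3).

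Correlations of the members describe the same 16 rats, which share the group differences. Pearson's r of log2 CPM was 0.962 between Col4a1 and Col4a2, the highest of the 36 pairs of members, 0.916 between Col4a3 and Col4a4 and 0.507 between Col4a5 and Col4a6. On deviations from the group means these were 0.918, 0.661 and 0.578, and Col4a3 had a higher value with Col4a5 (0.702) and with Col4a6 (0.688) than with its partner Col4a4. The deviations gave, without DN replicate 3, 0.918 for the first pair, 0.560 for the second and 0.522 for the third. The laminin-521 chains Lama5 and Lamb2 had an r of 0.694, and of 0.798 on deviations.

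**Figure D4:**
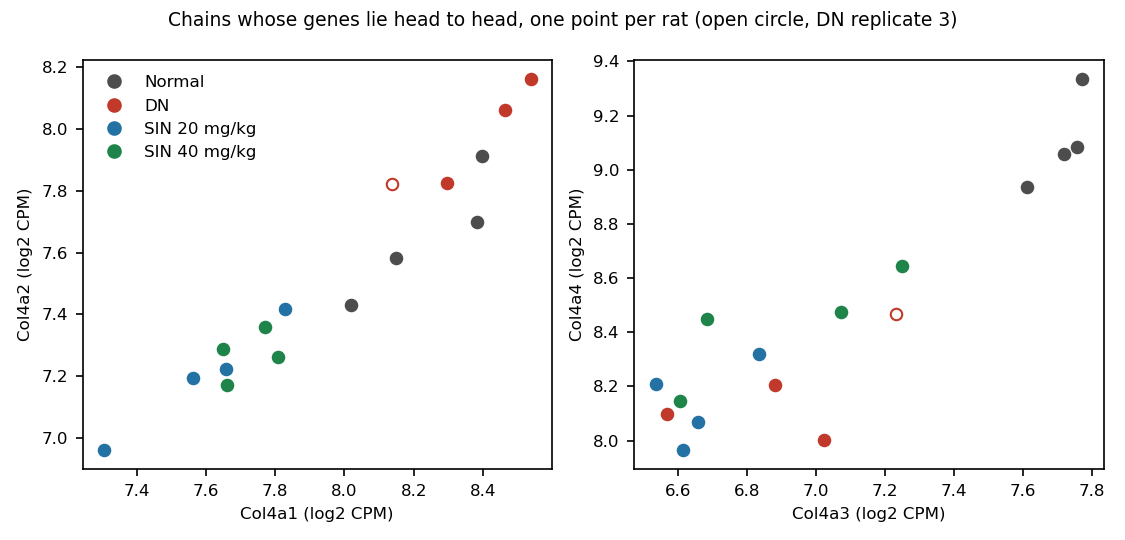
Level of Col4a2 against Col4a1 (left) and of Col4a4 against Col4a3 (right) in log2 CPM, one point per rat, coloured by group, with DN replicate 3 as an open circle. On the left the treated rats lie at the low end and on the right the normal rats lie at the high end. In both panels the levels of the partners rise together (Pearson's r of 0.962 and 0.916 over 16 rats).

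Of the 16395 other genes ranked by likeness to Col4a1 over the 16 rats, the closest were Creb3l1 (Pearson's r of log2 CPM 0.924), which encodes a transcription factor of the endoplasmic reticulum, Pnrc1 (0.901), Gpam (0.876), Arntl (0.862) and Nfil3 (0.860). Without DN replicate 3 the list was Creb3l1, Pnrc1, Nfil3, Sparc and Gpam, with r from 0.938 to 0.881. The closest to Col4a3 were Cmtm6 (0.907), Chd3 (0.894), Nr4a1 (0.888), Cacna1h (0.887) and Gramd1b (0.884), and without that library Gramd1b, Cdkl1, Cmtm6, Taf4b and Chd3, with r from 0.915 to 0.911. These values rest on 16 rats in 4 groups and are descriptive.

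Of 24 other basement membrane genes tested, 2 were called higher in the DN group and 2 lower, against 8.74% higher and 10.8% lower over all genes. The fitted change was above 0 for 16 of the 24, with a median of 0.20 on the log2 scale. Nid2, the second nidogen, rose by 0.52 on the log2 scale (adjusted p = 0.0244, edgeR quasi-likelihood test) where Nid1 fell, and Col15a1, a collagen that bridges basement membrane and interstitium, rose by 0.83 (adjusted p = 0.0388). Lama2, the laminin alpha2 chain of mesangium and muscle, changed by -0.55 (adjusted p = 0.0172) and Npnt, the nephronectin that binds integrin alpha8, by -0.47 (adjusted p = 0.0139). The count of 4 fell to 1 or 2 without normal replicate 1, normal replicate 3, DN replicate 1 or DN replicate 2, was 3 without DN replicate 3, where Col15a1 had an adjusted p of 0.0689, and was 6 without DN replicate 4.

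In the SIN groups none of these 24 passed an adjusted p of 0.05 in edgeR's quasi-likelihood test. At an unadjusted p, 1 was higher and 2 lower at 20 mg/kg, where 9.2% of all genes were higher and 6.24% lower. At 40 mg/kg 2 were higher and 3 lower, where the shares were 9.9% and 7.21%. DESeq2 called 1 and 3, and edgeR's exact test 1 and 2, and their shares over all genes are not given. Fras1, which encodes a basement membrane protein of the Fraser complex, was higher at both doses without overlap, by 0.75 (unadjusted p = 8.23e-05, adjusted p = 0.141) and 0.58 (unadjusted p = 0.000483, adjusted p = 0.175). The share of all genes with every treated rat higher is not given, so this separation cannot be weighed against all genes. Sparc, whose product binds collagen IV, was lower without overlap, by -0.38 and -0.35. Non-overlap with every treated rat lower was seen in 3.65% and 3.99% of all genes. Col15a1 was lower by -1.02 at 40 mg/kg (unadjusted p = 0.000381, adjusted p = 0.175). The counts without DN replicate 3 were 1 higher and 2 lower at 20 mg/kg and 3 higher and 3 lower at 40 mg/kg.

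Genes that build and hold the collagen IV network were read from a list of 15, of which 14 were tested. In the DN group 2 were called higher and 1 lower, against 8.74% and 10.8% over all genes. Loxl1, a lysyl oxidase relative, rose by 0.57 on the log2 scale (adjusted p = 0.00498, edgeR quasi-likelihood test), as did Pxdn, the peroxidasin that crosslinks collagen IV, by 0.37 (adjusted p = 0.0477), and Mia3, needed to export large collagens, changed by -0.47 (adjusted p = 0.0171). At an unadjusted p, 1 of the 14 was lower at 20 mg/kg (Plod1, a lysyl hydroxylase, -0.43) and 3 at 40 mg/kg (Pxdn, -0.34; Lox, -0.68; and the collagen chaperone Serpinh1, -0.28), with 0 higher and medians of -0.15 and -0.16, against 6.24% and 7.21% of all genes lower. None passed at an adjusted p. With DN replicate 3 left out, Pxdn had an adjusted p of 0.072 in the DN group, and 1 gene was lower at each dose, Plod1 at 20 mg/kg and Pxdn at 40 mg/kg.

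Of 13 cell-surface receptors of basement membranes, 5 were called lower in the DN group and 3 higher, against 10.8% and 8.74% over all genes. Itga6, the laminin-binding integrin alpha6, changed by -0.89 (adjusted p = 0.00325, edgeR quasi-likelihood test), and of the collagen receptors Ddr2 was at -1.05 (adjusted p = 0.00496) and Ddr1 at 0.44 (adjusted p = 0.0154). Cd151, a tetraspanin that holds laminin-binding integrins, was at 0.35 (adjusted p = 0.0276). None passed at an adjusted p in the SIN groups, where an unadjusted p under 0.05 was reached by Itga2 (1.26) and Ddr1 (-0.26) at 20 mg/kg and by Ddr2 (0.37) and Itgb1 (0.26) at 40 mg/kg, against 9.2% higher and 6.24% lower and 9.9% higher and 7.21% lower over all genes. When DN replicate 3 was left out there were 5 receptors lower and 1 higher (Ddr1) in the DN group, with Cd151 at an adjusted p of 0.0562, 0 past an unadjusted p at 20 mg/kg and 1 at 40 mg/kg (Ddr2, 0.48).

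Genes of matrix degradation and regulators of basement membrane genes made up the other lists. The regulators were mainly genes of the TGF-beta pathway, together with Lmx1b and Wt1. Of 13 degradation genes 1 was called lower in the DN group, against 10.8% of all genes, and 0 higher: Adamts1, a matrix protease, at -0.52 (adjusted p = 0.0353, edgeR quasi-likelihood test). At an unadjusted p, 5 of the 13 were lower at 20 mg/kg and 4 at 40 mg/kg and 0 higher, against 6.24% and 7.21% of all genes lower, among them Plau, the urokinase plasminogen activator (-0.36 at 20 mg/kg), Mmp2 (-0.67 and -0.69) and Mmp14 (-0.36 and -0.53), proteases that cut and activate matrix, and none passed at an adjusted p. Leaving out DN replicate 3, Adamts1 had an adjusted p of 0.0639 in the DN group, and the counts of lower genes were 3 and 2. Of 12 regulators 1 was called higher and 1 lower in the DN group, against 8.74% of all genes higher and 10.8% lower. Tgfb1 rose by 0.51 (adjusted p = 0.0493, edgeR quasi-likelihood test) and its receptor gene Tgfbr1 changed by -0.66 (adjusted p = 0.0303), with adjusted p-values of 0.0427 and 0.0483 without DN replicate 3. Smad2, which passes on the signal of that receptor, was at -0.29 (adjusted p = 0.0919). Against the DN group, whose 4 rats are the same in all these comparisons, Tgfbr1 was at 0.62 at 20 mg/kg and 0.54 at 40 mg/kg, Smad2 at 0.45 and 0.48 and Tgfb1 at -0.35 and -0.33, each with an unadjusted p under 0.05 and no adjusted p under 0.175. Of the 12 regulators, 2 were higher and 1 lower at 20 mg/kg and 3 higher and 1 lower at 40 mg/kg at an unadjusted p. Over all genes, 9.2% were higher and 6.24% lower at 20 mg/kg, and 9.9% and 7.21% at 40 mg/kg. The counts of regulators were the same without DN replicate 3, where the shares were 9.12% and 6.28%, and 9.95% and 7.75%.

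Markers of cells that make alpha1-alpha2 collagen IV were set beside the lower Col4a1 and Col4a2 of the treated rats. Of 8 endothelial markers, 2 were lower at 20 mg/kg at an unadjusted p (Pecam1, -0.44, and Eng, -0.41) and 3 at 40 mg/kg (Cdh5, -0.31; Pecam1, -0.35; Eng, -0.27), with none at an adjusted p, against 6.24% and 7.21% of all genes lower, and their sum ranged from 583.4 to 698.7 CPM in the DN rats, 493.2 to 612.9 at 20 mg/kg and 573.1 to 615.9 at 40 mg/kg. The mesangial and pericyte marker Pdgfrb was at -0.39 and -0.25, and the sum of the 4 mesangial markers ranged from 118.5 to 142.1 CPM in the DN rats, 103.8 to 111.0 at 20 mg/kg and 100.96 to 138.1 at 40 mg/kg. Of 6 smooth muscle markers 5 were lower at each dose at an unadjusted p, against 6.24% and 7.21% of all genes. Their sums were 191.2 to 800.5 CPM in the DN rats, 137.0 to 176.6 at 20 mg/kg and 170.9 to 190.7 at 40 mg/kg. The count of 5 rested on DN replicate 3: without it 3 of the 6 were lower at 20 mg/kg and 1 at 40 mg/kg. Over all genes 6.28% and 7.75% were then lower. The median log2 fold changes of these markers were -0.39 and -0.19 in place of -1.38 and -1.15. Of 7 fibroblast markers 2 were lower at 20 mg/kg at an unadjusted p (Col1a1, a chain of collagen I, at -0.89, and Col1a2 at -0.65), 1 at 40 mg/kg (Col1a1, at -0.82) and 0 higher. Over all genes 6.24% and 7.21% were lower, and 9.2% and 9.9% higher. In the DN group over the normal group 6 of the fibroblast markers were tested. Called higher was 1 (Col1a1, 1.08, adjusted p = 0.0262, edgeR quasi-likelihood test) and lower 1 (Pdgfra, -0.41, adjusted p = 0.0285), against 8.74% and 10.8% of all genes. With DN replicate 3 left out, 0 of these markers were called higher in the DN group, with Col1a1 at 0.93 (adjusted p = 0.0531, edgeR). Called lower were 2, Pdgfra at -0.42 (adjusted p = 0.0492) and Dcn at -0.71 (adjusted p = 0.0321). Over all genes 7.33% were then called higher and 8.87% lower. At an unadjusted p 1 marker was lower and 1 higher at each dose, against 6.28% and 7.75% of all genes lower and 9.12% and 9.95% higher. The lower one was Col1a1, at -0.74 and -0.67. The higher one was Postn, named after its values were seen, at 1.93 and 2.06. The endothelial counts without that library were 2 and 3 lower. The part of these cell types in the lower Col4a1 and Col4a2 was not tested.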

How the data were processed

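Kidney RNA of 16 rats was sequenced as poly(A)-selected libraries. The authors deposited 1 table of estimated counts per gene with gene lengths; the submitters' processing notes name TopHat, Bowtie, RSEM and edgeR, and the study's methods name the Ensembl rat genome. Columns were matched to samples by the number at the end of the sample description, since the table writes X where the labels write Y, and 4 columns of other libraries were not used. The 9 members and all gene lists were chosen with earlier results of these data known. Estimated counts were rounded to whole numbers; reads shared by similar genes stay split as they were in the table. Pairs of groups were compared with edgeR 4.0.16 in R 4.3.3 (filterByExpr, TMM, quasi-likelihood test, two-sided, Benjamini-Hochberg over all genes tested); standard errors were derived from the F statistic. DESeq2 1.42.0, edgeR's exact test, RLE and upper-quartile scaling, no filter on low counts, a minimum of 10 counts in each rat, 1 fit over all 16 rats, a replicate block and leaving out each rat were alternatives; for the other lists, shares, ratios and correlations, leaving out DN replicate 3 was added after the data were seen. The scripts were tested on simulated data. Log2 CPM used a prior count of 2. Named were all members, and, of each other list, at most 4 genes with an adjusted p under 0.05 per comparison or else at most 3 at an unadjusted p under 0.05, by smallest p, and the 5 genes most like Col4a1 and Col4a3; Tgfb1 at 40 mg/kg and cell markers set beside a result were added after their values were seen. Hspg2 and Ren1 were not matched. Labels do not say whether replicates share a litter or day, and p-values measure only the spread between these rats.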

Additional observations from a re-analysis of the deposited data

Results flagged for a closer look

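Col4a5 in normal replicate 1 was at 66.7 CPM, far below the other 3 normal rats, which lay between 76.7 and 78.2 CPM. It was 1 of 36 checks of a gene in a group of 4, and chance flags about 1 in 20 such groups. The distance is small beside the spread of Col4a5 in the DN group, at 46.5 to 82.1 CPM. Normal replicate 1 also had the highest smooth muscle and urothelial marker sums of the normal group.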

How the results depend on the processing

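Of 576 refits of the 9 genes in the planned comparisons, 549 kept their direction and side of the threshold, 13 came to pass it, 0 lost it and 14 turned direction. The calls of Col4a3, Col4a4 and Nid1 in the DN group held in all 16 alternatives, with an adjusted p of up to 0.0319, 0.0289 and 0.0358. All turns came from leaving out single rats, where the log2 fold change ran from -0.20 to 0.0380 for Col4a5 (DN over normal); from -0.14 to 0.042 for Lama5 and -0.13 to 0.039 for Col4a4 (SIN 20 mg/kg over DN); from -0.16 to 0.094 for Col4a3, -0.20 to 0.026 for Col4a5 and -0.31 to 0.087 for Col4a6 (SIN 40 mg/kg over DN); and from -0.019 to 0.14 for Col4a2 and -0.11 to 0.015 for Lama5 (between doses). Members called in the SIN groups numbered 2 at each dose by DESeq2 and by the exact test against 0, and 2 at 20 mg/kg and 1 at 40 mg/kg with all 16 rats in 1 fit. Other basement membrane genes called were 1 at 20 mg/kg by DESeq2, the exact test and the 16-rat fit, and 3 and 2 at 40 mg/kg by DESeq2 and the exact test, against 0. The shares of all genes that DESeq2, the exact test and the 16-rat fit called are not given. Leaving out single rats gave 3 to 5 members at an unadjusted p in DN over normal, 1 to 6 other basement membrane genes called there, 2 to 5 members at an unadjusted p at 20 mg/kg over DN (5 without DN replicate 4), and 0 to 2 between doses (0 without SIN 20 mg/kg replicate 3, SIN 40 mg/kg replicate 2 or replicate 4). The 16-rat fit gave 1 there. The replicate numbers did not pair the rats, since same-numbered deviations correlated between -0.239 and 0.056. With a replicate block, the other basement membrane genes called in DN over normal went from 4 to 0, members at an unadjusted p between doses from 2 to 1, and members called in DN over normal stayed at 3. The causes of these changes were not tested. Of 288 refits against the normal group, 265 kept their direction and side, 8 lost the call, all for Col4a1 and all from leaving out a rat, 9 came to pass the threshold, all for Col4a2, and 6 turned direction, for Col4a6 and Lamb2.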
